A study of Sus scrofa with 20 samples.

Results

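The let-7 miRNAs described here are 9 mature forms from the human-reference count table. hsa-let-7a-5p, hsa-let-7b-5p, hsa-let-7d-5p, hsa-let-7f-5p, hsa-let-7g-5p, hsa-let-7i-5p and hsa-miR-98-5p are guide strands, and hsa-let-7a-3p and hsa-let-7d-3p are the opposite strands of 2 of their hairpins; the species prefix is left off hereafter. They were chosen by name, with let-7c and let-7e left aside, and they are 9 of the 608 human miRNA names in the table. They are not simply the most abundant rows of the family. Over the 20 libraries let-7c-5p had 107310 reads, against 86912 for let-7b-5p, 78379 for miR-98-5p, 19286 for let-7d-3p and 9152 for let-7a-3p. All 9 passed the filter on low counts, as did 245 names in all. The cells were blood mononuclear cells (PBMCs, mainly lymphocytes with monocytes) of female American Yorkshire pigs aged 80 to 90 days and weighing 36 to 41 kg. Untreated blood taken before surgery formed the Control group, and blood taken 6 h after intracerebral hemorrhage (ICH), produced by an autologous blood injection in frontal white matter via a burr hole, formed the ICH group. Each group held 10 libraries, numbered 1 to 10 in both, and libraries with the same number were compared as pairs. Both groups came from the same breed, sex and age, and no sham-operated group was analysed here, so the operation and the bleed cannot be told apart. Library totals ran from 919313 to 2177834 human-reference reads.

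The let-7 miRNAs are among the most conserved miRNAs of animals. Their guide strands share a seed, the stretch near the 5′ end that pairs with target mRNAs, and so can repress overlapping targets, among them RAS, MYC, HMGA2 and the cytokine IL-6. The protein LIN28 blocks their maturation in stem cells, and they accumulate as cells differentiate, so mature blood cells hold much of them. Because the guide strands are nearly identical, how reads were divided among them is uncertain. In bulk RNA from mixed blood cells, fewer cells of a type and less RNA per cell cannot be told apart.

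In the pig genome (Sscrofa11.1, RefSeq), the genes of let-7a, let-7d, let-7f, let-7g, let-7i and miR-98 lie on 5 chromosomes; that of let-7b was not analysed here. MIRLET7A-2 (43465667 to 43465758), MIRLET7F-2 (43466034 to 43466130) and MIRLET7D (43468501 to 43468596) form a cluster on chromosome 3, inside no other annotated gene. MIRLET7F-1 (46303245 to 46303327) and MIR98 (46302381 to 46302460) are 784 bp apart on chromosome X, and both lie within the interval of HUWE1, a ubiquitin ligase gene. MIRLET7G lies within the interval of WDR82 on chromosome 13 (34406140 to 34406219). MIRLET7I lies on chromosome 5 (27252802 to 27252886) and MIRLET7A-1 on chromosome 9 (49152586 to 49152665), where MIR100 is its nearest neighbour; neither is inside another gene. Mature let-7a-5p and let-7f-5p can each come from 2 of these genes, and the counts do not separate them.

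The 9 members took a large part of all miRNA reads. Summed, they held 39.3% ± 4.70 of the human-reference reads of Control libraries, against 38.1% ± 3.85 of those of ICH libraries (SD over 10 libraries each). Before ICH the share ran from 32.8% to 46.9% with a median of 40.1%, and 6 h after it ran from 30.4% to 42.8% with a median of 38.6%. The groups overlapped, and the share was lower after ICH in 7 of 10 pairs. miR-21-5p, the other very abundant miRNA of these libraries, took 12.8% ± 2.88 of reads before and 17.5% ± 2.35 after, so a share of all reads is pulled down as miR-21-5p takes more. Among the reads that were not miR-21-5p, the members took 45.0% ± 4.8 before ICH and 46.1% ± 4.28 after it, with the later library higher in 6 of 10 pairs. The direction of the summed share therefore depended on whether miR-21-5p was in the total, and both differences were smaller than the spread within a group.

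**Figure D1:**
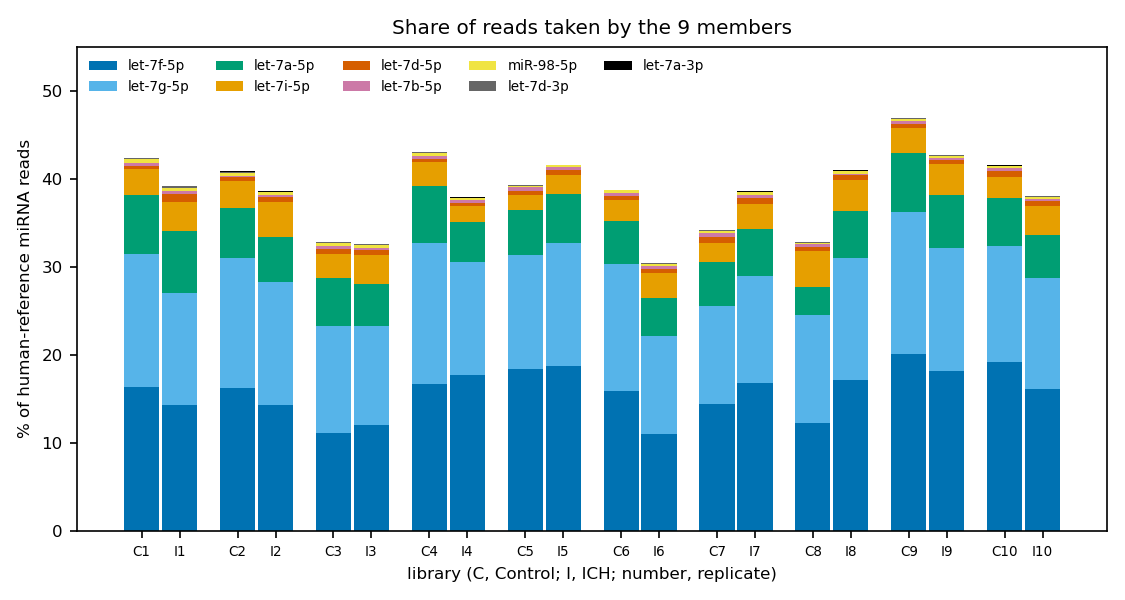
Stacked bars show the percentage of human-reference miRNA reads taken by each of the 9 members in each of the 20 libraries, Control (C) beside ICH (I) for each replicate number. The total height runs from 30.4% to 46.9%, and let-7f-5p, let-7g-5p and let-7a-5p make up most of every bar.

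3 guide strands carried the family. let-7f-5p was the most abundant of all 245 miRNAs tested, let-7g-5p ranked 3 and let-7a-5p ranked 5. Of the members' reads, these 3 together held 89.8% ± 2.30 before ICH and 88.6% ± 2.20 after (SD, 10 libraries each). let-7f-5p alone took 16.0% ± 2.85 of all reads before ICH, let-7g-5p 13.8% ± 1.72 and let-7a-5p 5.48% ± 1.05. let-7i-5p, at 2.70% ± 0.616, came next. let-7d-5p took 0.50% ± 0.123, let-7b-5p 0.329% ± 0.0611 and miR-98-5p 0.291% ± 0.0607. The opposite strands were scarce, at 0.0683% ± 0.0300 for let-7d-3p and 0.0333% ± 0.00668 for let-7a-3p.

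This order of levels held in most libraries. let-7f-5p had more reads than let-7g-5p in 17 of 20 libraries, the exceptions being Control 3, Control 8 and ICH 6. let-7g-5p exceeded let-7a-5p in 20 of 20, and let-7a-5p exceeded let-7i-5p in 19 of 20, all but Control 8. let-7i-5p was above let-7d-5p, and let-7d-5p above let-7b-5p, in every one of the 20. let-7b-5p and miR-98-5p could not be ordered, since let-7b-5p was the higher in 11 of 20. miR-98-5p exceeded let-7d-3p in 20 of 20, and let-7d-3p exceeded let-7a-3p in 19 of 20, all but Control 5. Reads per miRNA also depend on how well each end is ligated, which differs between sequences, so these are orders of reads.

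The main comparison asked whether any member differed between blood before and 6 h after ICH. None was called: 0 of 9 members passed an adjusted p of 0.05 in the edgeR quasi-likelihood test with the replicate number as a block, where 47 of 245 miRNAs (19.2%) did. 2 of the 9, let-7i-5p and let-7d-5p, had an unadjusted p under 0.05. DESeq2 (50 of 245 called, 20.4%) and limma voom (47 of 245, 19.2%) with the block also called 0 of 9, each with 2 at an unadjusted p under 0.05. Over all miRNAs 32 rose (13.1%) and 15 fell (6.12%) with TMM scaling, against 15 rising and 24 falling with library totals, which lowered the median log2 fold change of all miRNAs by 0.11. The median of the members was 0.071 on the log2 scale, against 0.026 over all 245 tested, and 8 of 9 members had a value above 0 with TMM, 5 of which were below 0 with library totals. Without the block 0 of 9 members and 9 of 245 miRNAs (3.67%) were called, and 0 of 9 had an unadjusted p under 0.05. In all 9 members the ranges of the Control and ICH values overlapped, a description that sets the pairs aside and was not compared with the other miRNAs.

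**Figure D2:**
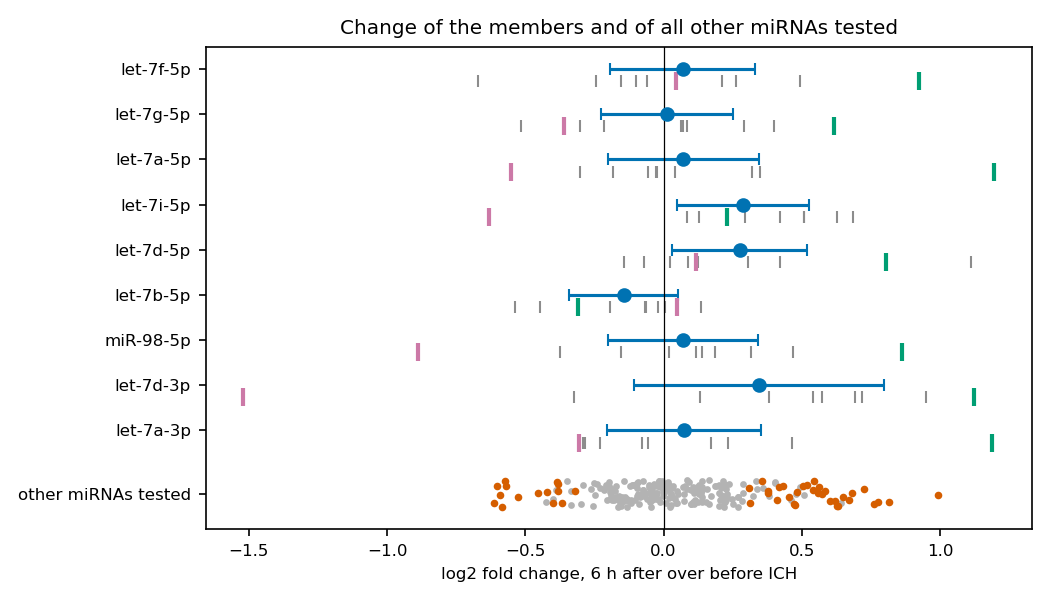
Blue points are the log2 fold changes of the 9 members, 6 h after over before ICH, with 95% intervals, and ticks under each are its 10 within-pair differences, with number 4 in pink and number 8 in green. The bottom row holds the other miRNAs tested, orange where the adjusted p was under 0.05. 0 of 9 members were called, and number 8 gave the largest rise for 6 members and number 4 the largest fall for 5.

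The 3 most abundant members differed little between the groups. Levels are given in CPM, the read count relative to the library total scaled with its TMM factor. let-7f-5p ran from 89081 to 241269 CPM before ICH (median 163268) and from 97943 to 216913 after (median 173456). The lowest and highest libraries of each group were thus far apart and the medians close together. On the log2 scale it differed by 0.069 ± 0.12 (SE; edgeR with the block, adjusted p = 0.768), with a 95% interval of 0.875-fold to 1.26-fold, and it was higher in 5 of 10 pairs. let-7g-5p ran from 92687 to 193613 CPM (median 136982) and then from 98444 to 166676 (median 136073). Its log2 difference was 0.012 ± 0.11 (edgeR, adjusted p = 0.958), with an interval of 0.855-fold to 1.19-fold. For let-7f-5p and let-7g-5p, Control 9 was the highest library before ICH and ICH 9 the highest after.

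let-7a-5p had a wide range before ICH, from 27704 to 81320 CPM (median 51787), and a narrower one after, from 38868 to 71619 (median 55024). Control 8 was low, at 27704 against 41851 in the next library, and Control 9 was high. let-7a-5p differed by 0.071 ± 0.12 on the log2 scale (edgeR with the block, adjusted p = 0.768), with an interval of 0.870-fold to 1.27-fold. miR-98-5p, which carries the let-7 seed under another name, ran from 1814 to 3919 CPM (median 2585) and then from 2066 to 3657 (median 2936). It was higher after ICH in 7 of 10 pairs, and its log2 fold change was 0.071 ± 0.12. let-7a-3p, the least abundant member, ran from 166 to 503 CPM (median 327) and then from 237 to 411 (median 336), lower after ICH in 6 of 10 pairs. As for let-7a-5p, Control 8 was its lowest library before ICH and Control 9 its highest, and its log2 difference was 0.074 ± 0.12. For let-7f-5p, let-7a-5p, let-7a-3p, let-7g-5p and miR-98-5p the sign of the fold change was not stable: with library totals all 5 were below 0, between -0.096 and -0.031. Set against the median of all miRNAs under the same scaling, let-7a-5p lay 0.045 above it with TMM and 0.046 above it with library totals.

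let-7i-5p and let-7d-5p had the smallest p among the members. let-7i-5p, reported to target the innate immune receptor TLR4, was at 29482, 30915, 21840, 28140, 16628, 23514, 17658, 35001, 33872 and 24421 CPM in Control 1 to 10. In ICH 1 to 10 it was at 32183, 43939, 29237, 18144, 23634, 24937, 28360, 41054, 41520 and 37720 CPM. In these CPM, scaled with TMM, it was higher after ICH in 9 of 10 pairs and lower in number 4, where it went from 28140 to 18144. As a share of all reads, let-7i-5p was higher in 8 of 10 pairs. The means were 26147 ± 6386 and 32073 ± 8696 CPM (SD, n = 10 each), and the log2 difference of 0.29 ± 0.11 (SE; edgeR with the block, adjusted p = 0.0589) missed the threshold. Without number 4 the log2 fold change was 0.34 ± 0.080 with an adjusted p of 0.00423 (edgeR), so the call for let-7i-5p turned on that pair; 61 of 245 miRNAs (24.9%) were called in that fit. The size also depended on the scaling: let-7i-5p was at 0.18 ± 0.094 with library totals (adjusted p = 0.202), 0.17 ± 0.12 with upper-quartile scaling (adjusted p = 0.345) and 0.15 ± 0.099 with totals outside the 9 members (adjusted p = 0.298, all edgeR with the block).

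let-7d-5p ran from 3651 to 6528 CPM before ICH (median 4381) and from 4165 to 8461 after (median 5797). It was higher in 8 of 10 pairs, and its largest rise was in number 1, at 2.16-fold. As a share of all reads, let-7d-5p was higher in 6 of 10 pairs. The log2 difference of let-7d-5p was 0.28 ± 0.11 (edgeR with the block, adjusted p = 0.0704), with an interval of 1.02-fold to 1.43-fold. Left out in turn, no number brought let-7d-5p under the threshold, and its log2 fold change was 0.13 without number 1 and 0.17 without number 8. With library totals it was 0.17 ± 0.11 (adjusted p = 0.313), with upper-quartile scaling 0.16 ± 0.12 (adjusted p = 0.376) and with totals outside the members 0.14 ± 0.11 (adjusted p = 0.390, all edgeR with the block).

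let-7d-3p, the opposite strand of the same hairpin, varied most of all the members. It was at 1004, 921, 917, 977, 263, 379, 448, 402, 847 and 462 CPM in Control 1 to 10, and at 1938, 1200, 732, 340, 392, 552, 724, 877, 927 and 762 CPM in ICH 1 to 10. It was higher after ICH in 8 of 10 pairs, lower in number 3, and in number 4 it was at 0.348 of its level before. The SD of its within-pair log2 difference was 0.767, against a median of 0.402 over all miRNAs tested. The log2 difference of let-7d-3p was 0.35 ± 0.20 (edgeR with the block, adjusted p = 0.269). Without number 4 it was 0.48 ± 0.12 with an adjusted p of 0.00714 (edgeR), so this call also turned on that pair. Without number 8 the value was 0.21 ± 0.19 (adjusted p = 0.491) and without number 1 it was 0.22 ± 0.20 (adjusted p = 0.535, both edgeR), and with totals outside the members it was 0.21 ± 0.21.

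let-7b-5p, which as an extracellular RNA can activate the receptor TLR7, was the only member whose fold change was below 0 in the fit with TMM and the block, and it was below 0 under every scaling tried. It ran from 2190 to 3970 CPM before ICH (median 3096) and from 2083 to 4110 after (median 2720), and was lower in 7 of 10 pairs. It also had the steadiest pairs, with an SD of the within-pair log2 difference of 0.222. Its log2 difference was -0.14 ± 0.087 (edgeR with the block, adjusted p = 0.272), with an interval of 0.789-fold to 1.04-fold. When libraries were scaled by the reads outside the 9 members, let-7b-5p was at -0.28 ± 0.093 with an adjusted p of 0.0274 (edgeR), in a fit that called 54 of 245 miRNAs (22%), 38 of them lower. With library totals let-7b-5p was at -0.25 ± 0.10 (adjusted p = 0.0827, edgeR), and without number 1 at -0.23. The scaling by reads outside the members lowered the median log2 fold change of all miRNAs by 0.14, and relative to that median let-7b-5p was at -0.17 under both scalings.

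**Figure D3:**
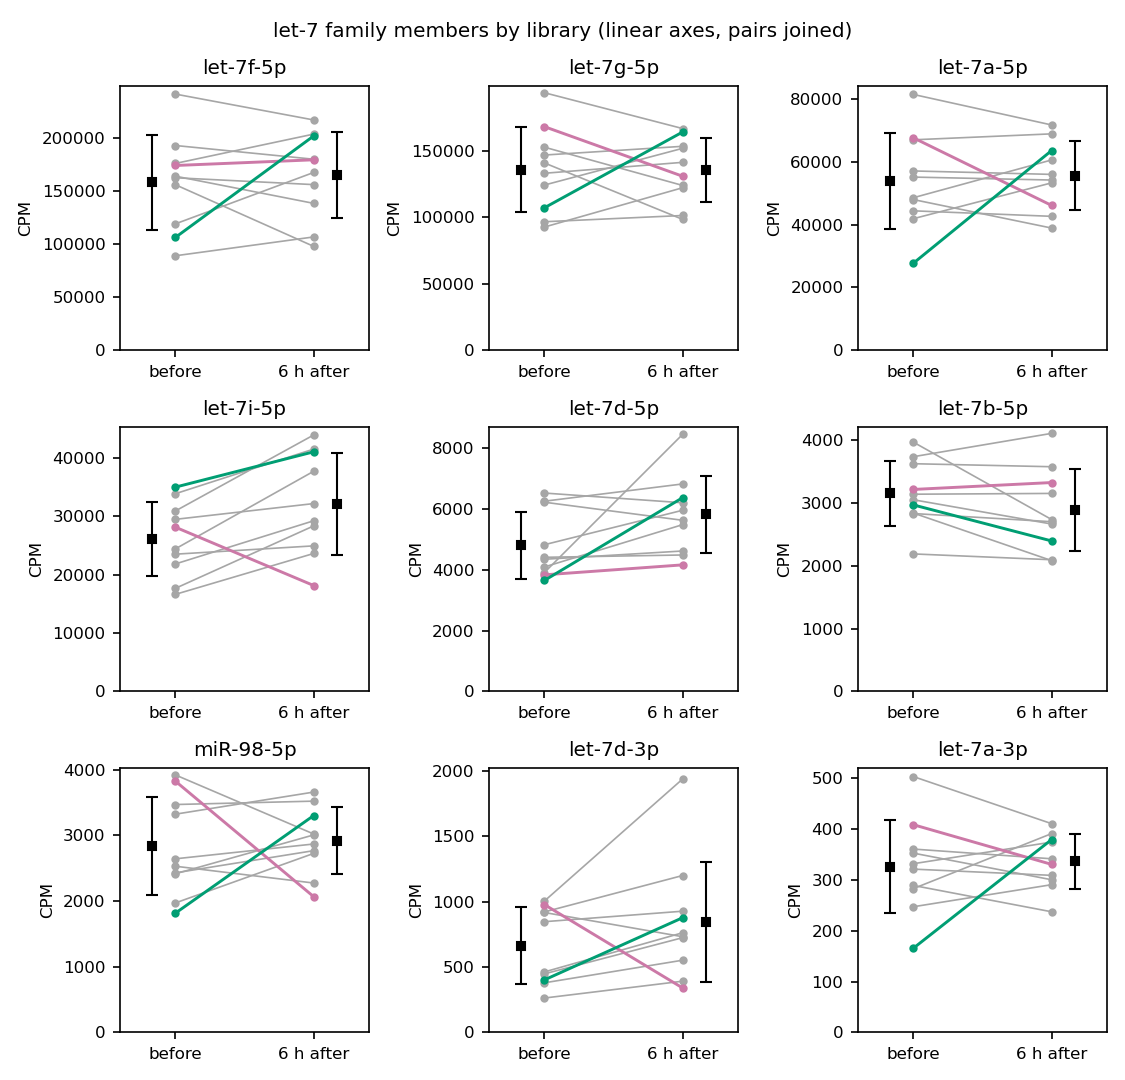
Each panel shows 1 member, with its CPM before and 6 h after ICH on a linear axis from 0; lines join the 10 pairs, with number 4 in pink and number 8 in green, and black squares with bars are the group mean and SD. The groups overlap in all 9 panels, let-7i-5p is higher after ICH in 9 of 10 pairs, and the pairs numbered 4 and 8 run in opposite directions for let-7a-5p.

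Numbers 4 and 8 held many of the largest changes: number 8 gave the largest rise for 6 members and number 4 the largest fall for 5. They were not alone in moving many members at once. After ICH 8 of 9 members were higher in number 8, as in number 5, and all 9 were higher in number 7. Of the 9 members, 6 were lower in number 4, as in numbers 6 and 9, and number 6 held the largest fall for 3. In number 8 the library before ICH was the lowest Control library for 4 members, let-7a-5p, let-7a-3p, let-7d-5p and miR-98-5p, and the highest for let-7i-5p. From Control 8 to ICH 8, let-7a-5p went up 2.29-fold, let-7a-3p 2.29-fold, let-7d-3p 2.18-fold, let-7f-5p 1.90-fold, miR-98-5p 1.82-fold, let-7d-5p 1.75-fold, let-7g-5p 1.53-fold and let-7i-5p 1.17-fold, while let-7b-5p went to 0.807 of its level. Taken as a share of all reads in number 8, let-7a-5p went from 3.19% to 5.38% and let-7i-5p from 4.03% to 3.48%. By that measure let-7b-5p was also lower, and the other members were higher. In number 4, let-7d-3p went to 0.348 of its level before ICH, miR-98-5p to 0.540, let-7i-5p to 0.645, let-7a-5p to 0.682, let-7g-5p to 0.778 and let-7a-3p to 0.809. let-7f-5p and let-7b-5p were at 1.03 times and let-7d-5p at 1.09 times theirs. Without number 8, let-7a-5p was at -0.093 ± 0.091 on the log2 scale (edgeR with the block, adjusted p = 0.513). The labels give no reason to treat either pair differently from the rest.

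Ratios between members within a library need no scaling between libraries. Each tested miRNA was divided by let-7a-5p of the same library, and the change of the log2 ratio was tested within pairs with limma. Of the 8 other members 0 passed, with 0 at an unadjusted p under 0.05 and a smallest adjusted p of 0.588. Over all 244 miRNAs set against let-7a-5p, 0 (0%) passed and 36 had an unadjusted p under 0.05. let-7i-5p changed by 0.21 ± 0.17 relative to let-7a-5p (SE; 95% interval -0.18 to 0.60), and 8 of 10 pairs had the higher ratio after ICH. let-7d-3p had the largest change of the 8, 0.25 ± 0.19 (adjusted p = 0.588, limma), with a higher ratio in 7 of 10 pairs. The value was 0.20 ± 0.17 for let-7d-5p and -0.22 ± 0.18 for let-7b-5p, with ratios lower in 8 of 10 pairs for the latter. Single pairs moved these values: without number 8 let-7i-5p was at 0.34 ± 0.11 (adjusted p = 0.0671, limma) and let-7b-5p at -0.077 ± 0.12, without number 1 let-7d-5p was at 0.11 ± 0.17, and without number 4 let-7d-3p was at 0.39. let-7g-5p was at -0.063 ± 0.15, while let-7f-5p (-0.0050 ± 0.15), miR-98-5p (-0.0060 ± 0.15) and let-7a-3p (0.0065 ± 0.14) were nearest to no change. These SEs are limma's, which draws the spread of each ratio towards that of all 244, and for let-7a-3p the spread of its own pairs gives the narrower interval of the arm ratio described next.

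let-7a and let-7d, the 2 names with both strands among the members, behaved unlike each other in their spread. For let-7a, the 5p strand had 126 to 229 times the reads of the 3p strand over the 20 libraries. let-7a-5p can come from 2 of the genes given above, and another 3p strand, let-7a-2-3p, was counted under its own name with 1 read in all. The let-7a ratio is therefore not that of 1 hairpin. On the log2 scale this ratio averaged 7.36 ± 0.15 before ICH and 7.36 ± 0.21 after (SD, 10 libraries each). The within-pair change of the let-7a ratio was -0.0065 (95% interval -0.13 to 0.12; two-sided exact sign-flip permutation test, p = 0.924, adjusted p = 0.924 over 2 ratios). For let-7d, the 5p strand had only 3.89 to 18.4 times the reads of the 3p strand. The log2 ratio was 1.96, 2.15, 2.25, 1.97, 4.20, 3.54, 3.8, 3.18, 2.88 and 3.82 in Control 1 to 10, and 2.13, 2.19, 2.66, 3.61, 3.93, 3.02, 3.24, 2.86, 2.60 and 3.03 in ICH 1 to 10. The ratio was higher after ICH in each of numbers 1 to 4 and lower in each of numbers 5 to 10. Control 1 to 4 were the 4 lowest Control libraries, ICH 1 and ICH 2 the lowest ICH libraries, and number 4 went from 1.97 to 3.61. Between the groups the let-7d ratio changed by -0.049 (95% interval -0.55 to 0.45; two-sided exact sign-flip permutation test, p = 0.859, adjusted p = 0.924 over 2 ratios). Without number 4 that change was -0.24 (two-sided exact sign-flip permutation test, p = 0.109).

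**Figure D4:**
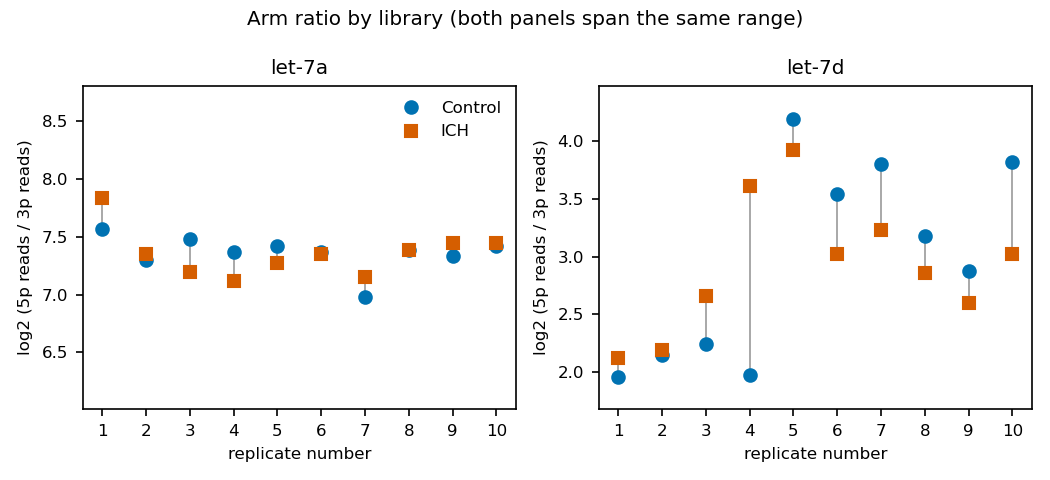
Points are the log2 ratio of 5p to 3p reads of let-7a (left) and let-7d (right) in each library by replicate number, Control as circles and ICH as squares, with lines joining pairs and the same span on both axes. The let-7a ratio stays near 7.36 in most libraries, while the let-7d ratio runs from 1.96 to 4.20 and number 4 changes most.

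Over the 20 libraries the members did not vary as 1 block. Among let-7a-5p, let-7a-3p, let-7f-5p and let-7g-5p, Pearson's r of log2 CPM ran from 0.742 to 0.880, and from 0.728 to 0.866 in the 18 libraries without number 8. miR-98-5p followed these 4 with r of 0.467 to 0.820. It was further from let-7f-5p (0.467), whose gene MIRLET7F-1 is its neighbour on chromosome X, than from let-7a-5p (0.820). With let-7d-3p, outside the 4, miR-98-5p had an r of 0.763. let-7d-5p had r of 0.125 to 0.435 with the 4, although MIRLET7D is in a cluster with let-7a and let-7f genes. let-7i-5p was closest to let-7d-3p (0.672) and miR-98-5p (0.615). let-7b-5p had r of -0.547 to 0.0536 with the other 8 members, the lowest with let-7i-5p. These correlations are descriptions over 20 libraries that share their scaling and their pairs, and near-identical sequences can share reads.

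**Figure D5:**
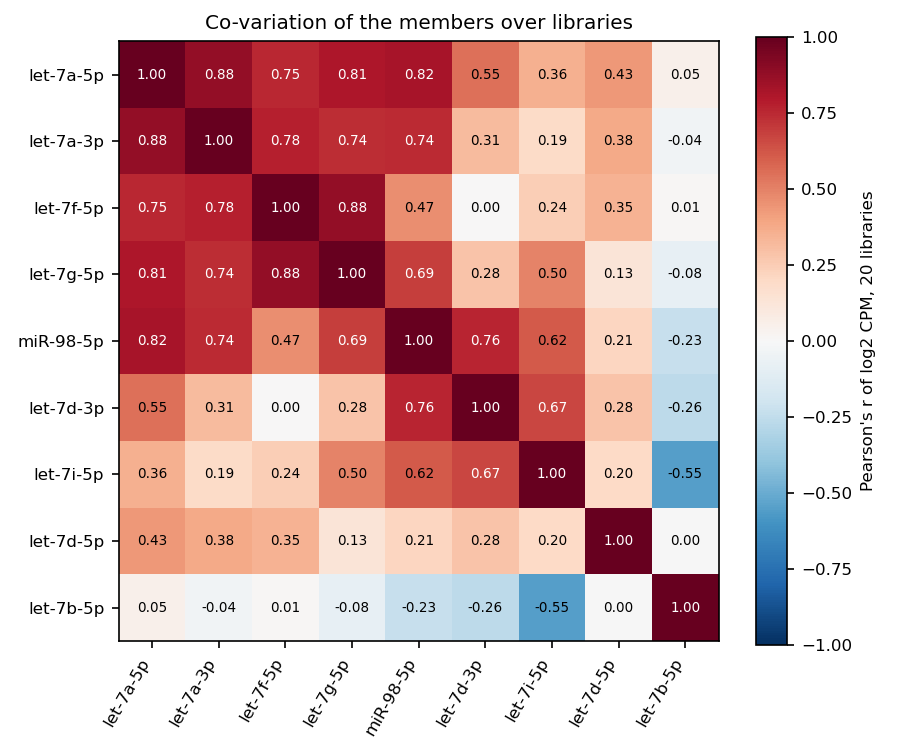
Each cell gives Pearson's r between the log2 CPM of 2 members over the 20 libraries, from -1 (blue) to 1 (red). let-7a-5p, let-7a-3p, let-7f-5p and let-7g-5p form a block of high values, from 0.742 up, and let-7b-5p is near 0 or negative with the other 8. Values as high also lie outside that block, such as miR-98-5p with let-7a-5p (0.820) and with let-7d-3p (0.763).

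Outside the members, the miRNAs whose pattern was most like let-7f-5p among 122 averaging at least 100 CPM were let-7e-5p (r = 0.887), miR-140-3p (0.647) and miR-340-5p (0.558), over 20 libraries. For let-7g-5p they were let-7e-5p (0.674), miR-26a-5p (0.655) and miR-191-5p (0.604). let-7e-5p, another family member, averaged 310.4 CPM, far below let-7f-5p.

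The pig-reference table has rows of the same names for 7 of the 9 members, all but let-7a-3p and let-7b-5p. These are the same reads counted against another reference, so they are a check and not independent evidence. Per library the pig-reference count was 99.0% to 99.9% of the human-reference count for let-7i, and 99.7% to 100.1% for the other 6 rows. 0 of the 7 rows passed (edgeR with the block, 1 at an unadjusted p under 0.05), where 39 of 179 pig-reference miRNAs (21.8%) did, and without the block 0 of 7 and 0 of 179 (0%) passed. let-7i had the smallest p there too, at 0.22 ± 0.11 on the log2 scale (edgeR, adjusted p = 0.146), and let-7d-5p was at 0.21 ± 0.11. Without number 4, let-7i was at 0.36 ± 0.078 and let-7d-3p at 0.51 ± 0.12, with adjusted p of 0.00249 and 0.00406 (edgeR), where 59 of 181 pig-reference miRNAs (32.6%) were called.

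Of the 11 other let-7 and miR-98 rows in the human-reference table, 8 were tested and 1 rose. That was let-7c-5p, at 0.38 ± 0.10 on the log2 scale (edgeR with the block, adjusted p = 0.0125). let-7c-5p relative to let-7a-5p changed by 0.30 ± 0.15 (limma, unadjusted p = 0.063, adjusted p = 0.349), with a higher ratio after ICH in 9 of the pairs. The ratio test called 0 of all 244 miRNAs set against let-7a-5p. It therefore cannot tell whether let-7c-5p changed differently from let-7a-5p. let-7e-5p was at -0.12 ± 0.11, and the median of the 8 was 0.0086. The miR-99, miR-100 and miR-125 miRNAs are encoded beside some let-7 genes. Of 11 such names 6 were tested, 0 rose and 2 fell, miR-125a-5p (-0.53 ± 0.12) and miR-99b-5p (-0.57 ± 0.13). Over all 245 miRNAs tested 32 rose (13.1%) and 15 fell (6.12%). The calls for let-7c-5p, miR-125a-5p and miR-99b-5p are from the fit with TMM only. With library totals 15 miRNAs rose and 24 fell.

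Blood cell markers moved between the same libraries. 3 of 4 lymphocyte miRNAs fell (median log2 fold change -0.36), 3 of 5 myeloid miRNAs rose (median 0.63), 2 of 4 erythroid miRNAs rose (median 0.57), and 1 of 3 tested platelet and endothelial miRNAs rose. Over all 245 miRNAs tested 32 rose (13.1%) and 15 fell (6.12%) in the same fit. These marker counts are from the fit with TMM only, and over all miRNAs library totals gave 15 rising and 24 falling. In CPM of the library total without TMM factors, the summed lymphocyte level ran from 17682 to 34580 in Control and from 14145 to 29039 in ICH, and the myeloid sum from 9911 to 17258 and from 11406 to 17120. The part of these cell types in the members' values was not tested. The blood cell miRNAs miR-142-3p and miR-142-5p together took 14409 to 28498 CPM in Control and 11186 to 21737 in ICH; 0 of 2 passed, both had an unadjusted p under 0.05 (edgeR with the block), and their median log2 fold change was -0.23. By contrast 7 miRNAs of liver, neurons, muscle and epithelium took 2.96 to 19.2 in Control and 13.8 to 67.4 in ICH. Of these 7, miR-124-3p of neurons and miR-208a-3p of heart had no reads listed.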

How the data were processed

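Small RNA libraries (NEBNext kit, total RNA of PBMCs, per the labels' protocols) were counted by the authors against human and pig miRNA references. The deposited counts are whole reads per miRNA and library; the deposited RPM were the filtered counts rescaled by their own total, within 0.005 on checking. The submitters' processing notes name Bowtie, FastQC and bcl2fastq without versions; how shared reads were divided, and the filter's rule, are not given in the sources used.

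Unfiltered counts of all 20 libraries were fitted with edgeR 4.0.16 under R 4.3.3 (TMM, filterByExpr, robust quasi-likelihood) with the replicate number as a block, and p was adjusted by Benjamini-Hochberg over all miRNAs tested (threshold 0.05). Intervals use t with 9 degrees of freedom. Ratios used a pseudocount of 0.5, with limma 3.58.1 or exact sign flips; DESeq2 1.42.0 was an alternative. Scripts were tested on simulated data. Deviations from the group means correlated between libraries of 1 number (r of 0.146 to 0.672, 10 of 10 above 0.1), and the design text describes repeated sampling, so the numbers were taken as pairs. The labels do not name the animals. Intervals and p cover the spread between libraries.

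The miRNAs named are the 9 members, and others from fixed lists or by likeness (at least 100 CPM). Members and lists were chosen with earlier results of these data known. Positions come from the RefSeq gene table of Sscrofa11.1, which gives gene intervals only. Figures were drawn with matplotlib 3.10.9.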

Additional observations from a re-analysis of the deposited data

Results flagged for a closer look

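In 24 groups of 10 libraries (the 9 members, the 2 arm ratios and the summed share, in each group), 2 had an extreme library whose gap to the next one, relative to the range, passed Dixon's 95% limit; chance gives about 1 in 20. Both concern the log2 ratio of let-7a-5p to let-7a-3p. Control 7 was low, at 6.98 against 7.30 to 7.57 in the other Control libraries. ICH 1 was high, at 7.84 against 7.12 to 7.45 in the other ICH libraries.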

How the results depend on the processing

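The 0 of 9 members called became 1, let-7b-5p, when libraries were scaled by reads outside the members, and 0 to 2 when each replicate number was left out, the 2 being let-7i-5p and let-7d-3p without number 4; the cause was not tested. Over all miRNAs those fits called 54 of 245 (22%) and 61 of 245 (24.9%). In the pig-reference counts leaving out a number gave 0 to 2 of 7, the 2 also without number 4, where 59 of 181 (32.6%) were called. The count of all miRNAs called was 47 with the replicate block and 9 without it, and 32 (without number 6) to 61 (without number 4) with a number left out. Without the replicate block no member's call changed.

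Fold changes near 0 changed sign with the scaling. On the log2 scale let-7a-5p, let-7a-3p, let-7f-5p, let-7g-5p and miR-98-5p were, in that order, -0.035, -0.031, -0.038, -0.096 and -0.038 with library totals, -0.045, -0.042, -0.045, -0.10 and -0.044 with upper-quartile scaling, -0.066, -0.063, -0.068, -0.13 and -0.067 with totals outside the members, and -0.033, -0.024, -0.039, -0.096 and -0.039 with limma on the deposited RPM. let-7g-5p was also below 0 without the replicate block (-0.0019), with DESeq2's size factors (-0.019), DESeq2 (-0.019), no low-count filter (-0.044), a mean of at least 10 CPM (-0.0048) and the filtered counts (-0.012). In the pig-reference counts let-7a, let-7f and miR-98 were -0.020, -0.0017 and -0.024 without the block and -0.039, -0.043 and -0.042 with library totals.

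With a replicate number left out, the values ran from -0.093 to 0.093 for let-7a-5p, -0.086 to 0.074 for let-7a-3p, -0.068 to 0.11 for let-7f-5p, -0.099 to 0.030 for let-7g-5p, -0.061 to 0.13 for miR-98-5p, 0.21 to 0.34 for let-7i-5p, 0.13 to 0.29 for let-7d-5p, 0.21 to 0.48 for let-7d-3p and -0.23 to -0.13 for let-7b-5p. They ran in the pig-reference counts from -0.11 to 0.11 for let-7a, -0.084 to 0.088 for let-7f, -0.11 to 0.028 for let-7g and -0.077 to 0.15 for miR-98. Ratios to let-7a-5p ran from -0.025 to 0.037 for let-7a-3p, -0.072 to 0.035 for let-7f-5p, -0.034 to 0.040 for miR-98-5p, -0.091 to -0.0052 for let-7g-5p, 0.16 to 0.34 for let-7i-5p, 0.11 to 0.27 for let-7d-5p, 0.18 to 0.39 for let-7d-3p and -0.31 to -0.077 for let-7b-5p. The change of the let-7a arm ratio ran from -0.037 to 0.025 and that of let-7d from -0.24 to 0.034. let-7i-5p, let-7d-5p and let-7d-3p stayed above 0, and let-7b-5p below 0, under all alternatives run on the human-reference counts. The correlations without number 8 were chosen after seeing the data.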
